A study of Mus musculus with 2 samples.

Results

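The histone genes of mouse embryonic stem (ES) cells were taken as all protein-coding genes whose symbol begins Hist1h, Hist2h, Hist3h or Hist4h, together with 10 named variants: H2afx, H2afz, H2afv, H2afy, H2afy2, H3f3a, H3f3b, H1f0, H1fx and Cenpa. The choice used names and gene biotypes of the GENCODE M21 annotation and no measured value. It gave 74 of the 43629 genes with a row in the count tables, made up of 64 replication-dependent genes and 10 variants. The annotation holds 77 such genes, and Hist1h2bh, Hist1h2bm and Hist2h2bb had no row.

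Histones package DNA into nucleosomes, whose core holds the proteins H2A, H2B, H3 and H4, while H1 binds the DNA between nucleosomes. Replication-dependent histone genes lie in clusters, are transcribed while DNA is copied, and make mRNAs that end just after a short stem-loop instead of in a poly(A) tail. The stem-loop is bound by SLBP, and the cut after it is guided by the U7 small nuclear ribonucleoprotein. Variant histones are made through the cell cycle from genes that mostly have introns and give polyadenylated mRNAs. ES cells divide quickly and spend much of their cycle copying DNA, so they make much histone mRNA.

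Both libraries came from Dgcr8 knockout ES cells of a 129/Ola background at passage 7, made with paired CRISPR/Cas9 cutting, and were labelled replicates A and B. Dgcr8 binds primary microRNAs for the nuclease Drosha. The labels give the molecule as polyA RNA, the kit as Illumina TruSeq RNA and the protocol as reverse-stranded. They hold 1 group, explain neither KO2 nor d5 in the titles, and leave unsaid if these came from different cultures or clones, so their spread may be technical.

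Gene counts summed to 27872396 (A) and 30327146 (B). Dgcr8 had 1253 counts in A and 1942 in B, which checks the genotype only if the deleted part was counted, and its position is not given in the sources used here. All 6 ES cell markers examined were present, at 52.3 to 803 RPKM in A and 35.03 to 686 in B. RPKM are counts per kilobase of merged exons per 1000000 counts of the library. Of 6 fibroblast markers, which feeder cells would bring, the summed level was 12.9 RPKM in A and 8.19 in B, mostly from Thy1, and Postn had 0 counts in both.

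The sequence that sets replication-dependent genes apart is shown first, because it stands where other mRNAs have a poly(A) tail and the labels give the molecule as polyA RNA. The stem-loop was searched in annotated transcripts as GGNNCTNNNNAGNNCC on the transcript strand, with both 6-base arms exactly complementary. It was found in 44 of the 64 replication-dependent genes, 68.75%, against 153 of 21400 other protein-coding genes, 0.715%, although the latter have longer transcripts (median 2913 against 555.5 bases). Among the variants it was found in H2afx alone. The sites run 5′ to 3′ on the gene's strand in GRCm38, with the arms of the stem in capitals and the loop and flanks in lower case. They are Hist1h1c and Hist1h4i, the most counted replication-dependent genes with a match, and H2afx. The others are the highest remaining match of each core family by mean RPKM. They lie at chr13:23739507-23739532 (plus strand, Hist1h1c), chr13:22040961-22040986 (minus, Hist1h4i), chr13:23570663-23570688 (minus, Hist1h2ae), chr11:58949344-58949369 (plus, Hist3h2ba), chr13:23745042-23745067 (minus, Hist1h3c), chr13:23757361-23757386 (plus, Hist1h4b) and chr9:44335235-44335260 (plus, H2afx).
Hist1h1c: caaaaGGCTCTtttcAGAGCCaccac
Hist1h4i: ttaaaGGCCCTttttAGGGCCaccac
Hist1h2ae: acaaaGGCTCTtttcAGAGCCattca
Hist3h2ba: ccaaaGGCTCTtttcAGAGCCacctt
Hist1h3c: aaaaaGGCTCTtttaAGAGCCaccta
Hist1h4b: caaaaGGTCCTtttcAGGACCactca
H2afx: acaaaGGCCCTtttaAGGGCCaccac

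The search fixed some bases of both arms, so the matched stem-loops could differ only at the rest. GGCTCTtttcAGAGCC stood in 24 of the 44 replication-dependent genes and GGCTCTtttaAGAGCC in 6, and the arm GGCTCT was the arm of every matched H1, H2A, H2B and H3 gene. All 12 matched H4 genes had another arm: 7 had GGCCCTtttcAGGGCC, 2 had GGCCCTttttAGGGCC, 2 had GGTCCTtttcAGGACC and 1 had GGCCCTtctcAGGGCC. H2afx, an H2A variant, had the GGCCCT arm that was otherwise seen in H4 genes.

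Replication-dependent genes were near the floor of the libraries, and variants were among the well-counted genes. The 64 replication-dependent genes together had 1250 counts in A and 599 in B, while the 10 variants had 51221 in A and 39479 in B. Replication-dependent genes thus gave 2.38% of histone counts in library A, with an exact 95% Clopper-Pearson interval of 2.25 to 2.52%, and 1.49% in library B, with one of 1.38 to 1.62%. On the mean of both libraries the share was 1.94%, but 0.830% over members with at least 80% unique 50-base windows, and 19.6% with H2afx counted in the class. All histone counts made up 0.188% of library A and 0.132% of library B. These and all other intervals cover counting error only, because PCR copies were not marked by molecular identifiers. Less histone mRNA and less capture of mRNA without a poly(A) tail cannot be told apart here, and in bulk RNA neither can fewer cells of a type and less RNA per cell.

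Per length, the median variant stood at 47.5 RPKM in A and 28.3 in B, and the median replication-dependent gene at 0.343 in A and 0.126 in B. The ratio of these medians was 138 in A and 224 in B. Over all 21551 protein-coding genes the median was 0.979 RPKM in A and 0.780 in B, between both classes. On the log2(RPKM + 0.1) scale the class medians differed by 6.75 in A and 6.91 in B, and by 6.67 on mean levels. All 10 variants, but only 2 of 64 replication-dependent genes, reached 1 CPM in both libraries, where CPM is counts per 1000000 of the library total and 1 CPM is 27.9 counts in A and 30.3 in B. Of all protein-coding genes, 11984 did so, or 55.6%.

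The classes met in 1 place. In A the lowest variant, H2afy2 at 13.1 RPKM, was above the highest replication-dependent gene, Hist1h2bc at 10.4. In B their order was the reverse, with H2afy2 at 3.61 RPKM and Hist1h2bc at 4.05. Apart from this pair, each variant was above each replication-dependent gene within its own library.

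**Figure D1:**
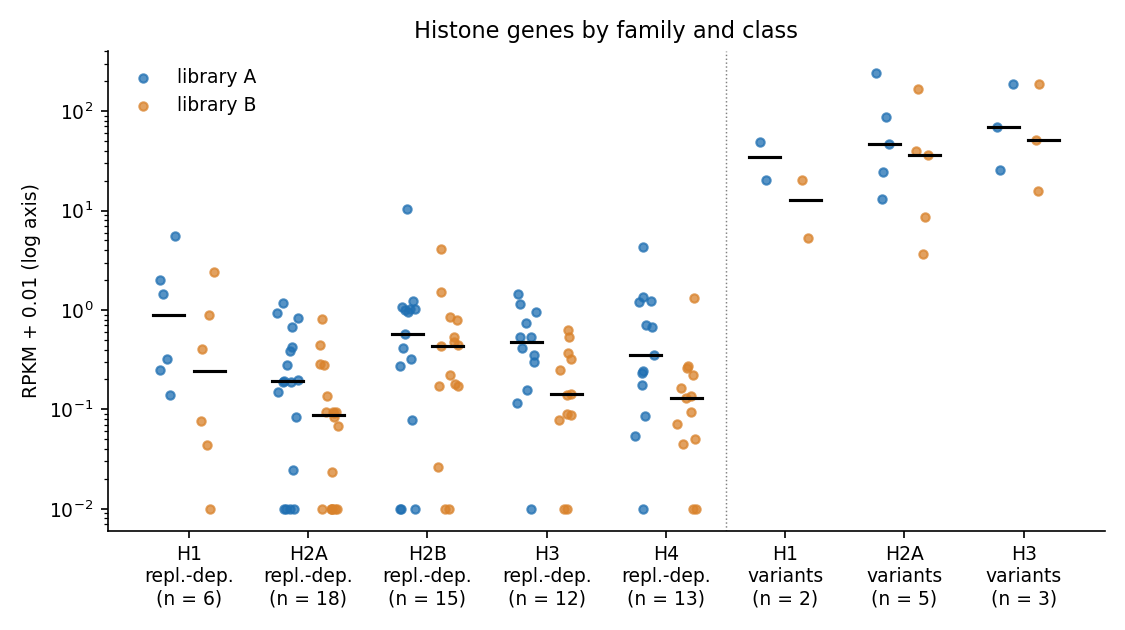
RPKM of each of the 74 histone genes plus 0.01, on a log axis, by histone family and class, with 1 point per gene and library. Within each library the variants lie above the replication-dependent genes, except that H2afy2 (3.61 RPKM) is below Hist1h2bc (4.05 RPKM) in B, and H2B and H4 have no variant among the genes chosen.

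Within families the gap was widest for H2A when H2afx was included. The summed RPKM of H2A variants was 74.3 times that of replication-dependent H2A genes in A and 107 times in B. For H3 the ratio was 43.1 in A and 99.9 in B, and for H1 it was 7.15 in A and 6.75 in B. The order of H2A over H3 over H1 was the same in both libraries, but the H2A and H3 ratios differed little in B. That order rests on H2afx, which gave 244 of the 416 summed RPKM of H2A variants in A and 167 of 254 in B. Without H2afx the H2A ratio falls below that of H3 in both libraries. All replication-dependent H2A genes also overlap exons of a gene on the opposite strand, and the part of this was not tested.

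Among the variants, H3f3b had the most counts in both libraries. H3f3a and H3f3b encode the same protein, H3.3, which replaces H3 at active genes and elsewhere without DNA replication. H3f3b had 15639 counts in A and 16829 in B, or 189 and 186 RPKM (188 ± 1.47, SD, n = 2). H3f3a had 6758 and 5463 counts, or 69.2 and 51.4 RPKM (60.3 ± 12.6, SD, n = 2). H3f3b was 2.72 times H3f3a in A and 3.63 times in B, and the pair gave 43.7% of variant counts in A and 56.5% in B. Cenpa, the H3 variant that marks centromeres, had 4197 and 2801 counts, or 25.7 and 15.8 RPKM (20.7 ± 7.03, SD, n = 2).

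H2afx was the highest histone gene per length on the mean of both libraries, with each gene's own counts taken as given. It encodes H2A.X, which is phosphorylated around DNA breaks. It had 9413 counts in A and 6998 in B, or 244 and 167 RPKM (205 ± 54.7, SD, n = 2). It was above H3f3b in A and below it in B, so these neighbours did not differ beyond their spread.

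The H2A.Z genes followed. H2afz and H2afv encode the closely similar proteins H2A.Z.1 and H2A.Z.2, which sit in nucleosomes at promoters. H2afv had 4000 counts in A and 1949 in B, or 87.9 and 39.4 RPKM (63.6 ± 34.3, SD, n = 2). H2afz had 2287 and 1946 counts, or 46.2 and 36.1 RPKM (41.2 ± 7.12, SD, n = 2), 0.526 times H2afv in A and 0.918 times in B. The H2afz value depends on how reads that fit several places were treated, which is not given in the sources used here. H2afz shared 338 windows of 50 bases with the processed pseudogene Gm8203, which had 10400 counts in A and 11130 in B, more than H2afz itself. H2afz and Gm8203 together had 12687 and 13076 counts, and 64.6% of H2afz windows were unique among annotated transcripts.

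H3f3a also had pseudogenes with counts. Its 5 pseudogenes with at least 100 shared windows summed to 1484 and 1598 counts, of which 787 and 841 were of H3f3c. H3f3b shared windows with Gm6485, which had 443 and 573 counts, few beside its own.

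The macroH2A genes were lower. MacroH2A is an H2A with a large extra domain and is enriched on the inactive X chromosome. H2afy had 4647 counts in A and 1789 in B, or 24.5 and 8.66 RPKM (16.6 ± 11.2, SD, n = 2). H2afy2 was the lowest variant, with 797 and 238 counts, or 13.1 and 3.61 RPKM (8.38 ± 6.74, SD, n = 2). H2afy was 1.86 times H2afy2 in A and 2.401 times in B.

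The linker variants H1f0 and H1fx stood apart from each other. H1f0 encodes H1.0, known for its rise in cells that stop dividing, and had 2795 counts in A and 1273 in B, or 48.8 and 20.4 RPKM (34.6 ± 20.1, SD, n = 2). H1fx encodes H1.10 and had 688 and 193 counts, or 20.3 and 5.23 RPKM (12.8 ± 10.6, SD, n = 2). H1f0 was 2.41 times H1fx in A and 3.91 times in B. By mean RPKM the order of the variants was H2afx, H3f3b, H2afv, H3f3a, H2afz, H1f0, Cenpa, H2afy, H1fx and H2afy2. The place of H2afz is not fixed. With Gm8203 added it had 12687 counts in A and 13076 in B, more than H2afx in both libraries. H2afx and H3f3b, H2afv and H3f3a, and H1f0 and H2afz each changed places between A and B.

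**Figure D2:**
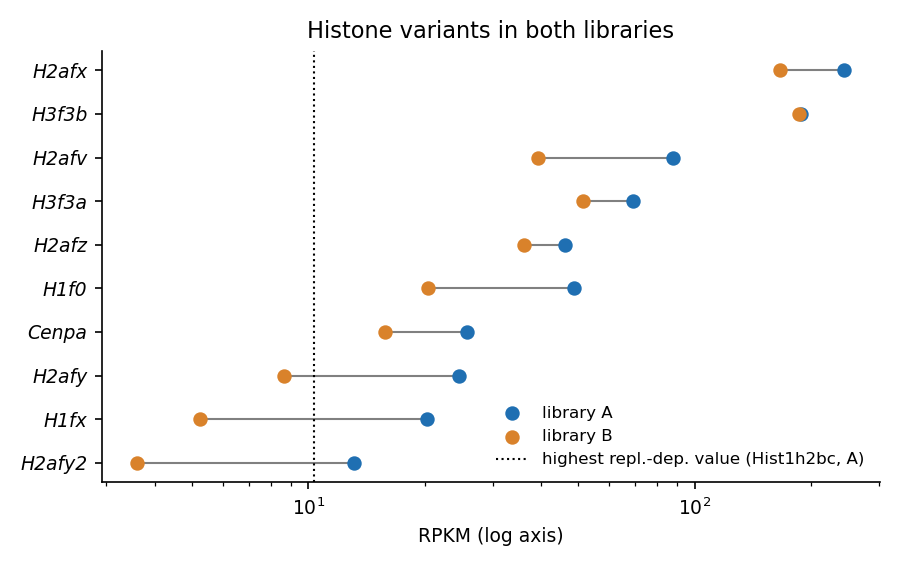
RPKM of the 10 variants in libraries A and B on a log axis, with a line joining both values of each gene. A dotted line marks the highest replication-dependent value, Hist1h2bc in A at 10.4 RPKM. H2afx (244 and 167) and H3f3b (189 and 186) lead, H3f3b has the smallest spread of the set, and H2afy2 (13.1 and 3.61) is lowest.

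Counts of the replication-dependent class came largely from 3 genes. Hist1h2bc, Hist1h1c and Hist1h4i gave 53.0% of its counts in A (50.1 to 55.8%) and 47.6% in B (43.5 to 51.7%). Hist1h2bc, an H2B gene, had 334 counts in A and 142 in B, or 12.0 CPM (exact Poisson 95% limits 10.7 to 13.3) and 4.68 CPM (3.94 to 5.52). Hist1h1c, which encodes the linker H1.2, had 241 and 114 counts, or 8.65 CPM (7.59 to 9.81) and 3.76 CPM (3.10 to 4.52). Hist1h4i, an H4 gene, had 87 and 29 counts, or 3.12 CPM (2.50 to 3.85) and 0.956 CPM (0.640 to 1.37). These were also the 3 highest per length, at 7.21 ± 4.47, 3.98 ± 2.22 and 2.80 ± 2.11 RPKM (SD, n = 2).

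The rest had 41 counts or fewer. Of the 64 genes, 33 had fewer than 10 counts in both libraries, 14 had at least 10 in both, 16 had 0 in at least 1 library and 6 had 0 in both. Of all 21551 protein-coding genes, 13324 had at least 10 in both, 5843 had 0 in at least 1 library and 4580 had 0 in both. Counts of 0 were thus not more frequent in this class. A count of 0 allows up to 0.108 CPM in A and 0.0989 CPM in B, taken as 3 counts, a lower bound than the upper Poisson limit used for other counts.

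By family, the H1 genes had the highest median in A, 0.882 RPKM over 6 genes, and the H2B genes the highest in B, 0.429 over 15. Hist1h1a, with 41 and 20 counts, and Hist1h1b, with 30 and 9, followed Hist1h1c among the linker genes. In H2B, Hist3h2ba had 21 counts in A and 28 in B, and Hist1h2bk and Hist1h2bb each had 14 and 12. Spread around the medians was wide, as Hist1h2bc alone held most H2B counts.

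The other core families were lower. H2A had the lowest medians, 0.181 RPKM in A and 0.0778 in B over 18 genes, led by Hist1h2ae with 23 and 17 counts, then Hist1h2ai (10 and 1), Hist1h2ag (9 and 4) and Hist3h2a (25 and 28). All 18 overlap exons of a gene on the opposite strand, and the part of such overlaps in these levels was not tested. H3 had medians of 0.463 and 0.131 over 12 genes, led by Hist1h3c (25 and 10 counts), Hist1h3g (14 and 10), Hist1h3a (17 and 5) and Hist1h3e (17 and 2). H4 had medians of 0.345 and 0.121 over 13 genes, and after Hist1h4i came Hist1h4b (15 and 3), Hist1h4f (13 and 1) and Hist1h4h (16 and 0). Members made in the male germ line were at or near 0: Hist1h1t had 8 counts in A and 0 in B, Hist1h2aa had 0 and 1, and Hist1h2ba had 0 in both.

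**Figure D3:**
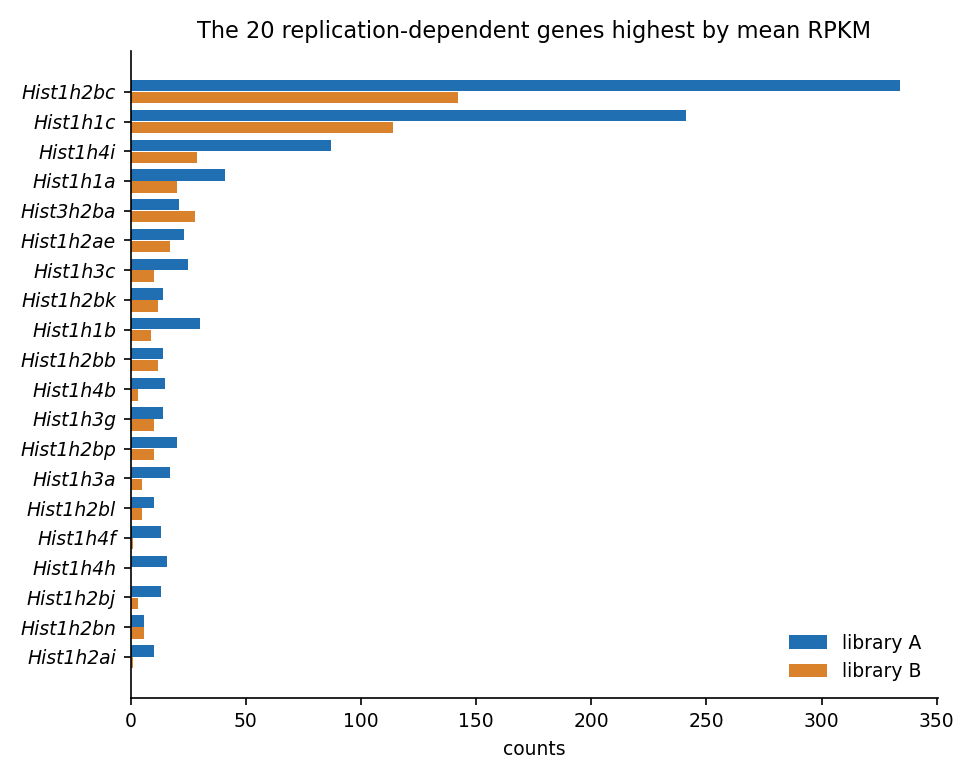
Counts of the 20 replication-dependent genes highest by mean RPKM in libraries A and B. Hist1h2bc (334 and 142), Hist1h1c (241 and 114) and Hist1h4i (87 and 29) stand apart, and no other gene passes 41 counts.

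Near-identical copies limit what a single gene's count means in this class. The median replication-dependent gene had 45.5% of its 50-base windows unique among annotated transcripts, 18 had under 20% and 12 had at least 80%. Hist1h1c had 91.5% unique windows, Hist1h4i 71.1% and Hist1h2bc 69.4%. Of the 64 genes, 23 overlap exons of another gene, 20 of them on the opposite strand. Every replication-dependent H2A gene is among these 20, and few genes of the other families are. Hist1h1c, Hist1h4i and Hist1h2bc are not among the 23. The strand setting of the counting is not given in the sources used here. For 16 H2A genes windows were shared with H2afx, up to 82 of them, while 90.3% of H2afx windows were unique.

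The position in the clusters went with uniqueness. The major Hist1 cluster on chromosome 13 falls into 22 genes at chr13:21715763-22043676 and 30 genes at chr13:23531050-23934851. The former had 235 counts in A and 93 in B and a median of 14.3% unique windows, the latter 937 and 413 counts and 59.8%. The 9 Hist2 genes at chr3:96219865-96269141 had 26 counts in A and 34 in B, and the 2 Hist3 genes at chr11:58948920-58956830 had 46 and 56. The single Hist4 gene, Hist4h4 on chromosome 6, had 6 and 3 counts.

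Annotated 3′ ends divided the replication-dependent genes into 3 kinds. In 22 genes the annotated transcripts with a stem-loop ended within 100 bases of it, and in 22 such a transcript ran further. In 20 no stem-loop was matched, 14 of which have a longest transcript under 500 bases. Median RPKM was 0.523 in A and 0.184 in B for genes ending at the stem-loop, 0.328 and 0.129 for those running past it, and 0.264 and 0.0839 for those without a match. The 3 kinds overlapped over most of their range. At least 10 counts in A were reached by 10 of 22, 14 of 22 and 5 of 20 genes of these kinds.

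The 3 most counted genes were none that end at the stem-loop. Hist1h1c runs 840 bases past its stem-loop, Hist1h4i runs 330 bases past it, and Hist1h2bc has a spliced model in which no stem-loop was matched. Spliced models were annotated for 5 replication-dependent genes: Hist1h2bc, Hist1h2be (33 and 23 counts), Hist1h2bp (20 and 10), Hist1h2bq (0 and 1) and Hist1h2br (0 and 0). A spliced model thus did not go with high counts in each case. In H2afx the annotated end lay 822 bases past the stem-loop.

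The polyadenylation signal AATAAA, searched in the last 50 bases of each annotated transcript, was present in 15 of 64 replication-dependent genes, 23.4%, in 9 of 10 variants, all but H2afx, and in 15042 of 21400 other protein-coding genes, 70.3%. Among replication-dependent genes it was present in 11 of the 22 that run past the stem-loop and in 1 of the 22 that end at it. That 1 gene is Hist1h2bp, whose 2 annotated transcripts, a spliced model among them, were both searched. The libraries do not show which of these ends was used, because the files give counts per gene.

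**Figure D4:**
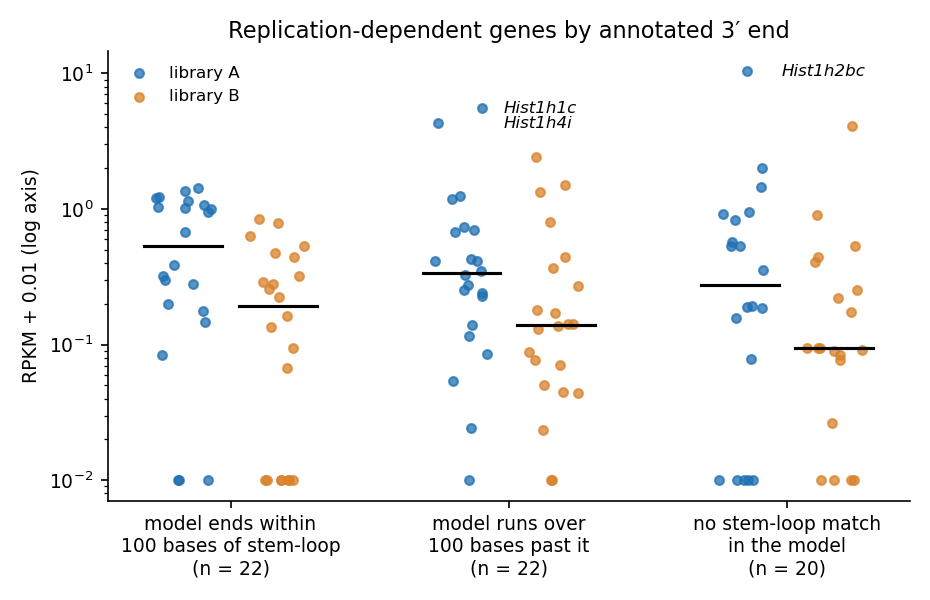
RPKM plus 0.01 on a log axis for the 64 replication-dependent genes by annotated 3′ end, with 1 point per gene and library and the median of each library as a bar. The kinds overlap across most of their range, with medians in A of 0.523 (ends at the stem-loop), 0.328 (runs past it) and 0.264 (no match).

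Promoters of the class share sequence as well. RefSeq promoters (GRCm38.p6, 250 bases before to 50 after the start) were matched for 68 of the 74 genes, 59 replication-dependent and 9 variant. CCAAT, on either strand, was present in 50 of 59 replication-dependent promoters, 84.7%, against 37.9% of 27025 promoters of all genes. TATAAA was present in 59.3% against 14.2%, and TTTGCAT, part of the octamer bound by OCT factors, in 20.3% against 4.59%. By family, CCAAT was in each of the matched H1, H2A, H2B and H3 promoters but in 3 of 12 H4 promoters, and TTTGCAT was in 7 of 18 H2A and 4 of 13 H2B promoters. Some H2A and H2B promoters overlap, as in the pairs described next, so the same site can count for both genes. Of the 9 variants, 6 had CCAAT, 1 had TATAAA and 1 had TTTGCAT.

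The H2A and H2B genes often share a promoter region. In 12 pairs, an H2A and an H2B gene run apart from each other with 175 to 305 bases between them, a median of 258.5. Hist1h2ac and Hist1h2bc are such a pair, 250 bases apart, with 1 count in each library for Hist1h2ac and 334 and 142 for Hist1h2bc. Shared promoter sequence did not go with equal counts in this pair, but its counts lay furthest apart of the 12 pairs. Hist1h2ac also overlaps exons of other genes on both strands, so its own count is uncertain. The 250 bases before the RefSeq start are shown for Hist1h2ac (chr13:23683960-23684209, minus strand), which cover most of that gap, for Hist1h4i (chr13:22041363-22041612, minus), an H4 promoter without CCAAT, and for the variant H2afz (chr3:137864237-137864486, plus). Capitals mark the 3 motifs named above on either strand. On the other strand CCAAT reads as ATTGG, and the octamer part ends in AAA. A match is a description of letters, not of a bound site.
Hist1h2ac: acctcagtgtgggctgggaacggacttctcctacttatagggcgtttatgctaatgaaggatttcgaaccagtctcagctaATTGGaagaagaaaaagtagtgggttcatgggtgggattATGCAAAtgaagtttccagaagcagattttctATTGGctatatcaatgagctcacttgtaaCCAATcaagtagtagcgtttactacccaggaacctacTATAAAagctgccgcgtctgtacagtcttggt
Hist1h4i: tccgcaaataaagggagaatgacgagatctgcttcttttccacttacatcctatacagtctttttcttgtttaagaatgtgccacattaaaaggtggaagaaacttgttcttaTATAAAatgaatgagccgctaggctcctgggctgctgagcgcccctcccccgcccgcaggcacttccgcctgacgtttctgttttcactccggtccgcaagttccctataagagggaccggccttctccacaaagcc
H2afz: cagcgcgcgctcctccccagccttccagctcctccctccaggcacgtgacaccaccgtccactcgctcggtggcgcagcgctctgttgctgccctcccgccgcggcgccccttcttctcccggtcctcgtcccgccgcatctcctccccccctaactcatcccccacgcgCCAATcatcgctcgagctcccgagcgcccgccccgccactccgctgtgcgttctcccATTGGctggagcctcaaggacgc

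Most histone genes had the higher CPM in library A. The comparison asks how well a level is fixed by these libraries, by a two-sided exact binomial test of each gene's 2 counts, with TMM-scaled library sizes and Benjamini-Hochberg adjustment over the 14583 genes that reached 1 CPM in A or B. It compares libraries, not conditions. Of all tested genes 76.8% were called at an adjusted p under 0.05, 38.4% higher in A and 38.4% higher in B. Of 16 tested members 15 were called, 14 higher in A and 1 higher in B, and with a background this high the number called is not read as a result about histone genes. Of the 6 replication-dependent genes among them, 4 passed 1 CPM through A alone, so the filter had a part in their direction. Fibroblast markers also summed higher in A, through Col1a1, Thy1 and Pdgfrb, while Col1a2 (2 and 7 counts) and Col3a1 (1 and 5) were higher in B; their part in this was not tested. Over all 64, CPM by library totals, a scale that leans to A, was higher in A for 50, higher in B for 8 and 0 in both for 6. On that scale 9791 of 21551 protein-coding genes were higher in A and 7180 in B.

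The variants gave the values that the filter does not touch. The log2 ratio (B over A, from TMM-scaled CPM with 0.5 added, which understates low genes) was -1.79 for H1fx, -1.71 for H2afy2 and -1.40 for H2afy. It was -1.15 for H1f0, -1.06 for H2afv, -0.61 for Cenpa, -0.46 for H2afx, -0.33 for H3f3a and -0.26 for H2afz. The variant of smallest ratio in size was H3f3b, at 0.08, the only member called higher in B (adjusted p = 3.09e-06, exact binomial test, Benjamini-Hochberg). It lost its call with library totals in place of TMM, at -0.016 (adjusted p = 0.359, exact binomial test). The median over the 10 variants was -0.84, against -0.01 over all tested genes.

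Of the replication-dependent genes, 2 passed the filter in both libraries: Hist1h2bc had a log2 ratio of -1.18 (adjusted p = 2.82e-19, exact binomial test) and Hist1h1c one of -1.02 (8.20e-12). The other 4 passed through A alone, so their ratios are given with no test: -1.24 for Hist1h4i, -0.94 for Hist1h1b, -0.70 for Hist1h1a and -0.36 for Hist1h2be. With each gene of at least 1 count tested, 18 of 58 replication-dependent genes were called, each higher in A. Of all 23698 genes so tested, 49.2% were called in either direction, and 5868 genes were called higher in A. Genes of the Hist3 cluster had more CPM in B, but neither was called in that wider test: Hist3h2ba had 21 and 28 counts and Hist3h2a 25 and 28. The Hist2 genes also summed higher in B, at 0.933 CPM in A and 1.12 in B. Of these 9 genes, 4 were higher in A and 3 in B.

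GC content moved with the library ratio over tested protein-coding genes. The median log2 ratio ran from 0.52 in the lowest of 10 equal GC bins to -0.58 in the highest bin, which held 33 of the 64 replication-dependent genes. Set against the median of its own GC bin, an alternative chosen after the data were seen, H2afx turned to 0.12 (adjusted p = 1.80e-07, exact binomial test) and H3f3b to -0.27 (2.73e-60). Of the 10 variants 9 lay below the median of their bin, and H1fx, H2afy2, H2afy, H2afv and H1f0 lay below it by the most, at -1.10 to -1.40. Hist1h2bc and Hist1h1c, which passed the filter in both libraries, lay at -1.43 and -0.70.

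**Figure D5:**
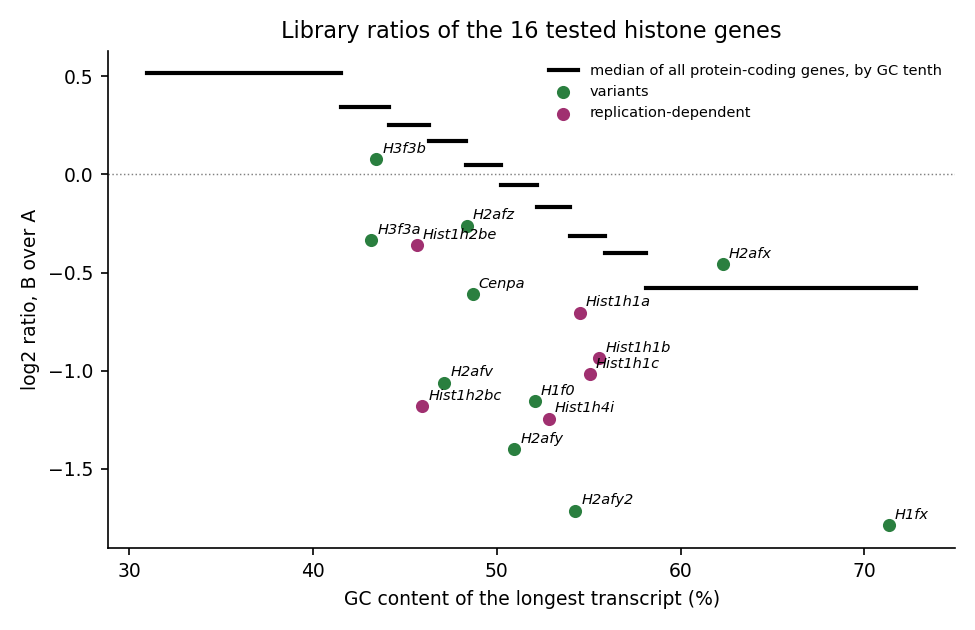
Log2 ratio of B over A for the 16 tested histone genes against the GC content of the longest transcript, in percent, with the median of all tested protein-coding genes in each of 10 GC bins as a line. The line falls from 0.52 to -0.58, and 9 of the 10 variants lie below the median of their bin, with H2afx the exception; the filter on low counts favours low ratios for 4 of the 6 replication-dependent genes.

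The genes that make, process and deliver histones were well counted, in contrast to the replication-dependent genes. All 40 listed genes passed 1 CPM in both libraries, and 7 were called higher in A, 30 higher in B and 3 (Asf1b, Hat1 and Daxx) not called, beside 38.4% of all tested genes in each direction. Their median log2 ratio was 0.33, or 0.18 against the medians of the GC bins and 0.23 with library totals. The variants had medians of -0.84, -0.89 and -0.93 on these scales. The list was chosen with earlier results known, and its direction is given as counts only.

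Among the 14 genes of histone transcription and 3′ end processing, 3 were higher in A and 11 in B. Slbp, which binds the stem-loop, stood at 10.8 RPKM in A and 13.996 in B (12.4 ± 2.25, SD, n = 2). Npat, which activates replication-dependent histone genes, stood at 5.29 and 10.1 (7.67 ± 3.37, SD, n = 2). The highest were Srrt (84.0 ± 6.08) and the cap-binding genes Ncbp1 (50.8 ± 2.90) and Ncbp2 (35.7 ± 5.56), and the lowest was Lsm11, a U7 ring protein (2.52 ± 0.613).

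Of 15 H3 and H4 chaperones and importers, 2 were higher in A and 10 in B. Hat1, which acetylates new H4, led at 178 ± 6.97 RPKM, followed by its partner Rbbp7 at 176 ± 15.1 and the H3 and H4 chaperone Nasp at 116 ± 18.4 (SD, n = 2). Ubn2, of the complex that deposits H3.3, was lowest at 3.34 ± 1.34. Among the centromere loaders, Oip5 (17.952 ± 4.75) and Mis18a (9.90 ± 2.45) were higher in A, and the CENP-A chaperone Hjurp (15.8 ± 3.36) was higher in B. Cenpa itself was higher in A.

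All 7 genes of H2A and H2B exchange were called higher in B. For Nap1l4 the direction depends on the scaling. Its log2 ratio was 0.07 with TMM, but its RPKM, from library totals, was 59.4 in A and 58.6 in B. Ssrp1 and Supt16, the subunits of FACT, stood at 158 ± 17.02 and 103 ± 22.4 RPKM, and Nap1l1 at 81.9 ± 2.17 (SD, n = 2). Srcap, whose complex inserts H2A.Z, was lowest at 9.55 ± 2.29. Under the GC-bin alternative Nap1l1 turned to a log2 ratio of -0.37, Hat1 to -0.24 and Nasp to -0.10, and 26 of the 40 genes were called higher in B and 9 higher in A.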

How the data were processed

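Poly(A) RNA of 2 Dgcr8 knockout ES cell libraries was analysed. The deposited files hold whole-number counts per Ensembl gene, not normalized. STAR 2.4.2a, featureCounts 1.4.5-p1 and mm10 appear in the submitters' processing notes, without their roles. Annotation release, strand setting and handling of multimapping reads: not given in the sources used here.

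Identifiers were matched to GENCODE M21 (42548 of 43629). CPM used library totals, and RPKM merged exon length. Exact 95% Poisson and Clopper-Pearson limits were computed, and a count of 0 was bounded at 3 counts. A and B were compared by an exact binomial test (scipy 1.17.1, Python 3.11.15) with TMM factors of 1.03 and 0.968 (edgeR 4.0.16, R 4.3.3), for genes that reached 1 CPM in A or B, and a pseudocount of 0.5 CPM. No quasi-likelihood fit can be made between single libraries. The binomial test was tried on simulated data with Poisson noise for these 14583 genes. It called 84.0% of changes of 1.5-fold and of 2-fold, and 100.0% of 3-fold and of 4-fold changes. Among 14383 genes left unchanged it called 7. The simulation held no spread beyond Poisson noise, so these rates cannot be carried over to A and B, where 76.8% of genes were called.

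Window uniqueness was counted among annotated transcripts, since no genome was used here. The comparison was repeated with library totals, DESeq2 1.42.0 size factors, other filters and pseudocounts and a GC shift, and levels with other lengths and sets of members.

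The members and lists were chosen with earlier results of these data known. Named genes are all variants, the 4 highest of each family by mean RPKM, the 5 largest ratios in each direction among called members with a mean of at least 1 CPM, testis members, members with spliced or extended transcripts (extended ones mostly by count), and in each supply list the 3 highest and the lowest, with Slbp and Npat. Of the genes this rule takes, 1 is not reported here. Pseudogenes, Asf1b, Daxx and Nap1l4 were named after their values were seen.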

Additional observations from a re-analysis of the deposited data

How the results depend on the processing

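On mean levels, the class medians of log2(RPKM + 0.1) differed by 6.67; the difference was 6.95 with the longest transcript as length, 4.93 with a pseudocount of 1, 6.54 without H2afx, 6.31 over members with a count in both libraries, and 6.75 to 6.91 when either library was left out. Replication-dependent genes gave 1.94% of histone counts on the mean of both libraries, 0.830% over members with at least 80% unique windows and 19.6% with H2afx counted among them, and 1.49 to 2.38% when either library was left out. The number of replication-dependent genes at 1 CPM was 2, against 14 at 10 counts in both libraries, and 2 in B alone and 6 in A alone. Members called between libraries numbered 15. They numbered 28 with all genes of at least 1 count and 26 with 10 counts summed over both libraries. Both are higher by construction, with more genes tested. All 10 variants were called each time, and 18 of 58 and 16 of 35 replication-dependent genes in the wider settings. Of all genes, 76.8% were called in the main setting, and 49.2% and 66.9% in the wider ones. With library totals, 6431 genes were higher in A and 4851 in B, against 5599 and 5602 with TMM, the median log2 ratio moved from -0.01 to -0.10, and H3f3b turned to -0.016 and Hat1 to -0.080. With the GC-bin shift, chosen after the data were seen, H2afx turned to 0.12, H3f3b to -0.27, Hat1 to -0.24, Nasp to -0.10 and Nap1l1 to -0.37; the cause was not tested. DESeq2 size factors reversed none of the 34 single-gene ratios tried. No paired analysis was possible because the series has 1 group, and the library comparison has no version without a replicate, since it needs both. Counts limit most single replication-dependent genes.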

Other observations

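Histone genes outside the rule were mostly silent. H2afj, an H2A variant gene, had 745 counts in A and 454 in B, or 11.4 ± 4.54 RPKM (SD, n = 2), below all variants but H2afy2 on this mean, and in B above H1fx as well. H1foo, the oocyte linker histone, had 1 count in A and 0 in B, and H2afb1, H2afb2, H2afb3, H1fnt, Hils1, H2al2a and H2al1a had 0 in both. Of the genes annotated as pseudogenes, those with a Hist symbol were near 0 as well, unlike the pseudogenes of H2afz and H3f3a: Hist3h2bb-ps had 0 and 1 counts, Hist1h2aj had 6 and 2, and Hist1h2al had 3 and 4.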
